A study of Mus musculus with 6 samples.

Results

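The 10 genes described here are targets of the transcription factor p53: Mdm2, Ccng1, Zmat3, Trp53inp1, Sesn1, Phlda3, Eda2r, Bax, Bbc3 and Pmaip1. They were taken by name as a list of p53 response genes, with earlier results of these data known. All 10 had a row among the 23284 gene symbols counted by RNA sequencing of mouse esophageal epithelium. The epithelium came from embryos at stage E12.5, 3 samples labelled littermate control (titled WT) and 3 labelled p63KO, which are homozygous for a Trp63-CreERT2 allele. The allele is a knock-in of an inducible Cre recombinase at the gene for p63, and no other allele or treatment is named for either group. The sources used here do not say whether a littermate control could carry 1 copy of the allele. They also do not say whether 1 sample is 1 embryo or a pool, but most libraries held transcripts of both sexes, given below. P-values therefore measure the spread between these samples, which may be technical.

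p53 is held at a low level by the ubiquitin ligase MDM2 and accumulates when DNA is damaged or ribosomes and metabolism are disturbed. It then binds DNA as a tetramer and switches on genes that arrest the cell, alter its metabolism, remove p53 itself or start apoptosis through the mitochondrial BCL2 family. p63 is a relative of p53 with a similar DNA-binding domain that can occupy many of the same DNA elements, and it is the master factor of stratified epithelia such as the esophageal lining. The sequence recognised by both proteins is built from a pair of 10-base decamers.

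Because p53 and p63 recognise this element, promoters of the members are shown first, for the genes that changed and for those with the closest match. RefSeq promoter windows (build GRCm38.p6, 250 bases before to 50 after the transcription start) matched 7 of the 10 genes, with 10 windows in all. Pmaip1, Zmat3 and Trp53inp1 had no entry. The p53 consensus decamer, which reads the same on both strands, was searched exactly and as a pair separated by 0 to 13 bases. Only the 250 bases upstream of the start are printed, 5′ to 3′ on the strand of the gene. Capitals mark an exact decamer and the pair with the fewest mismatches where that pair had at most 3, with the central C and G of each decamer required.
Sesn1, upstream start, chr10:41810324-41810573, plus strand: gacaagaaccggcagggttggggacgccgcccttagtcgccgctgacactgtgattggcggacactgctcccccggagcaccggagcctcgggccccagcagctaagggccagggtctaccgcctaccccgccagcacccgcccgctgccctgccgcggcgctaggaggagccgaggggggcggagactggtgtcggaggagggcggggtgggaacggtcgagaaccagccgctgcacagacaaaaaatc
Sesn1, downstream start, chr10:41887189-41887438, plus strand: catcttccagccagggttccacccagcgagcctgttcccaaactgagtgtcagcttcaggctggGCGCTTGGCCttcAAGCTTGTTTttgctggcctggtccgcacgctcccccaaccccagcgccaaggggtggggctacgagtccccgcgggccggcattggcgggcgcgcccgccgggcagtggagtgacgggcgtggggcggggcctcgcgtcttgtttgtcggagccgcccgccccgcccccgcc
Phlda3, chr1:135765835-135766084, plus strand: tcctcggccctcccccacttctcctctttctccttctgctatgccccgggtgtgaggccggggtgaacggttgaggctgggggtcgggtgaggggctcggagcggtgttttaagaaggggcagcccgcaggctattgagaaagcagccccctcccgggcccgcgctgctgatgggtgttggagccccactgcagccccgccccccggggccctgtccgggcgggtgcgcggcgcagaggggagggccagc
Bax, chr7:45466899-45467148, minus strand: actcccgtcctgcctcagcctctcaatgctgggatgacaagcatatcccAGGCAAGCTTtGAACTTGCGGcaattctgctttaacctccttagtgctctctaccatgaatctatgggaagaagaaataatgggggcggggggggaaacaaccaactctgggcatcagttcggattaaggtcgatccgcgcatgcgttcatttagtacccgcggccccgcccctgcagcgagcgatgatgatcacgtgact
Ccng1, chr11:40755287-40755536, minus strand: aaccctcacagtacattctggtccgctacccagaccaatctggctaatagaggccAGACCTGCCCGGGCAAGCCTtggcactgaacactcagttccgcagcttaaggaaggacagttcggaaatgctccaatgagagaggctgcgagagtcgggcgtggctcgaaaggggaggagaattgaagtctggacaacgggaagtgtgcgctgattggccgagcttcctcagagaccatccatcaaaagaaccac
Bbc3, first of 3 starts, chr7:16309333-16309582, plus strand: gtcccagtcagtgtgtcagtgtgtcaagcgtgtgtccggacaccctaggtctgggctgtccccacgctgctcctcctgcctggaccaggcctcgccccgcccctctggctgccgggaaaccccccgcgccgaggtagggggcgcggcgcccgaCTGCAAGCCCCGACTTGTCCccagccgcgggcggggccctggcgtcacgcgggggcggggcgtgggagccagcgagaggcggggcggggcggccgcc

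An exact decamer was found in 4 of the 10 member windows, those of Mdm2, Ccng1, Bax and the downstream start of Sesn1, whereas 8.36% of all 32851 RefSeq windows held one. Ccng1 had the closest pair, with 1 mismatch and no spacer (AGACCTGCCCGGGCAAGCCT), a match that 0.627% of all windows reached. Bax and the downstream start of Sesn1 had pairs with 2 mismatches, reached by 4.09% of all windows. Bbc3 had pairs with 3 mismatches at 2 of its 3 starts, reached by 15.6%. The windows of Phlda3, Eda2r, the upstream start of Sesn1 and the third start of Bbc3 held neither an exact decamer nor a pair within 3 mismatches, which says only that these letters are absent from these windows. A match describes sequence and is not evidence of binding, and the counts below do not tell which start was used.

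Library totals ran from 16948971 to 20093838 counts in control and from 13335328 to 16506401 in p63KO. Trp63 was at 549.8 to 673.8 CPM (read counts scaled for library size with TMM factors) in control and at 62.2 to 76.6 CPM in p63KO, so every library matched its label. Of 9 epithelial markers, 3 rose, 3 fell and 3 did not pass: Epcam was 850.4 ± 6.97 and 946.6 ± 5.05 CPM in control and p63KO, whereas the basal keratins Krt5 (233.3 ± 55.8 and 6.94 ± 4.52 CPM) and Krt15 (1283 ± 344 and 226.7 ± 51.2 CPM) and Cdh1 fell. The epithelial markers that rose were Krt8 (329.8 ± 37.7 and 446.1 ± 23.4 CPM), Krt18 (218.4 ± 43.1 and 349.2 ± 16.6 CPM) and Cldn6 (436.1 ± 22.7 and 563.9 ± 14.7 CPM). The summed CPM of 9 epithelial markers was 4621 to 5330 in control and 3910 to 4007 in p63KO. This sum includes the basal keratins Krt5 and Krt15, so its fall does not stand for all 9 markers. In these bulk samples fewer cells of a type and less RNA per cell cannot be told apart. Of 8 neuroendocrine markers all 8 rose, and their summed CPM was 2.25 to 3.82 in control and 286.7 to 356.3 in p63KO. The sum of 8 neuron and neural crest markers was 15.5 to 25.6 and 330.4 to 422 CPM. The sum of 10 mesenchyme markers was 450.3 to 531.8 and 1256 to 1653 CPM, of which Dcn made up 158.9 ± 49.1 and 1222 ± 151 CPM, while 4 of the 10 fell and 2 rose. The sum of muscle markers was 81.7 to 185 and 32.5 to 59.2 CPM, that of endothelial markers 3.76 to 6.59 and 3.60 to 7.42 CPM, and that of blood markers 13.1 to 49.6 and 22.4 to 34.1 CPM. The part of these markers in the changes below was not tested. Xist ran from 513.6 to 1454 CPM in 5 libraries, and the Y-linked Ddx3y from 33.7 to 75.3 CPM in the same 5. In the p63KO library of replicate 2, Xist was 1.59 CPM and Ddx3y 104.8 CPM. The 5 libraries thus held transcripts of both sexes, which 1 embryo alone would not give, and the libraries differed in sex make-up. The part of sex in the changes below was not tested.

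The 10 genes did not move as a block. Between p63KO and control, 3 of the 10 fell (Sesn1, Phlda3 and Pmaip1), 1 rose (Bax) and 6 did not pass the edgeR quasi-likelihood test at an adjusted p under 0.05. All 10 had enough counts to be tested. Of the 13849 genes tested, 29.6% changed, 14.3% fell and 15.3% rose, so that 4 of 10 called is near the background and is no result about the group. The median log2 fold change of the 10 genes was 0.07, beside -0.01 over all genes tested. The libraries of the groups did not overlap for 5 of the 10 genes (2 higher and 3 lower in p63KO), where 44.1% of all tested genes did not overlap (21.8% higher and 22.2% lower). The summed level of the 10 genes was 666.2 to 746 CPM in control and 604.3 to 738.6 CPM in p63KO.

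**Figure D1:**
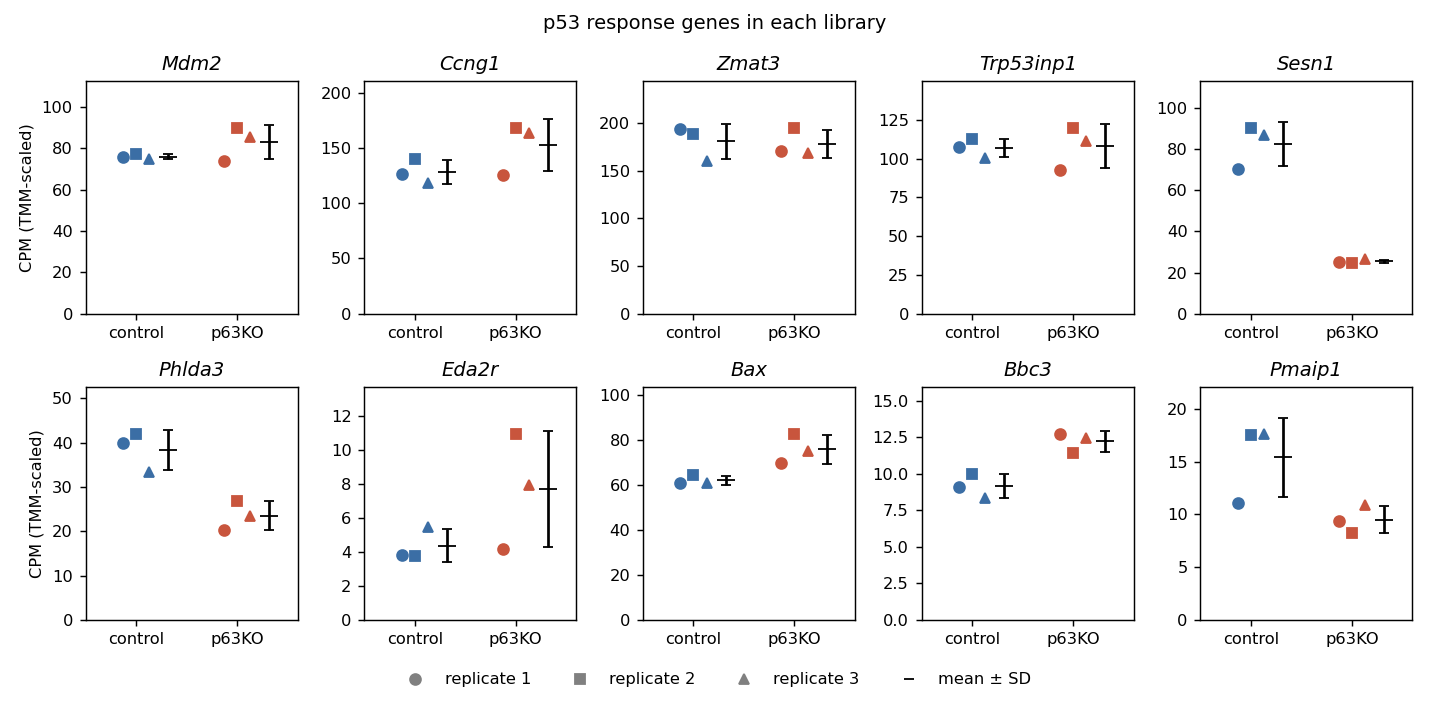
TMM-scaled CPM of the 10 genes in each library, with replicates 1, 2 and 3 as circles, squares and triangles, control in blue and p63KO in red, and the mean ± SD of 3 libraries beside them. The p63KO libraries of Sesn1 (24.8 to 26.3 CPM) sit far below the control libraries (70.3 to 90.5 CPM), while the groups of Mdm2, Zmat3 and Trp53inp1 overlap.

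Among the genes that restrain p53, Mdm2 encodes its main ubiquitin ligase and is the classical feedback target. Mdm2 was 75.6, 77.1 and 74.7 CPM in control replicates 1, 2 and 3 and 74.0, 90.0 and 85.5 CPM in p63KO replicates 1, 2 and 3. The control libraries lay close together, and p63KO replicate 1 was below all of them while the other p63KO libraries were above. The log2 fold change was 0.13 (SE 0.08, 95% interval -0.05 to 0.31, edgeR adjusted p = 0.26). Without p63KO replicate 1 the change was 0.21 and passed (edgeR adjusted p = 0.0476, the lowest of 15 alternatives, the highest being 0.463).

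Ccng1 encodes cyclin G1, which recruits a phosphatase that activates MDM2. It was 126.8, 140.3 and 118.6 CPM in control and 125.9, 168.5 and 163.6 CPM in p63KO. p63KO replicate 1 lay within the control range and the other p63KO libraries lay above it. The log2 fold change was 0.25 (SE 0.11, 95% interval -0.01 to 0.50, edgeR adjusted p = 0.14), and without p63KO replicate 1 it was 0.37 and passed (edgeR adjusted p = 0.0141, in a range of 0.0141 to 0.342 over the alternatives).

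Zmat3 encodes a zinc finger RNA-binding protein that regulates splicing and RNA stability downstream of p53, and Trp53inp1 encodes a stress-induced nuclear protein that promotes p53 phosphorylation and autophagy. Zmat3 was 194.3, 188.1 and 159.9 CPM in control and 170.5, 195.3 and 168.8 CPM in p63KO. Trp53inp1 was 107.7, 112.5 and 100.6 CPM in control and 92.3, 119.9 and 111.2 CPM in p63KO. The groups overlapped for both genes. Zmat3 had a log2 fold change of -0.02 (95% interval -0.22 to 0.18, edgeR adjusted p = 0.89) and Trp53inp1 of 0.01 (95% interval -0.21 to 0.23, edgeR adjusted p = 0.95), and the sign of each turned with at least 3 of the libraries left out in turn, that of Zmat3 also with upper-quartile scaling.

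Sesn1 had the largest change of the 10. It encodes sestrin 1, a stress protein that lowers mTORC1 activity and protects against oxidants. Sesn1 was 70.3, 90.5 and 86.8 CPM in control and 25.2, 24.8 and 26.3 CPM in p63KO, from 1310, 1772 and 1476 counts and 428, 358 and 355 counts. Each p63KO library was below each control library. The coefficient of variation was 3.16% in p63KO and 13% in control, and whether these spreads differed was not tested. The log2 fold change was -1.70 (SE 0.10, 95% interval -1.93 to -1.47, edgeR adjusted p = 3.2e-06), which left 30.8% of the control level. With 1 library left out in turn it ranged from -1.80 to -1.63 and passed in every such fit. Its paralogs Sesn2 (log2 fold change -0.19, SE 0.09) and Sesn3 (-0.36, SE 0.14) did not pass (edgeR adjusted p = 0.14 and 0.084). Whether Sesn1 differed from them was not tested.

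Phlda3 encodes a pleckstrin homology domain protein that competes with the kinase AKT for membrane lipids. It was 39.8, 42.0 and 33.3 CPM in control and 20.2, 26.7 and 23.5 CPM in p63KO, with no overlap. It fell by 0.71 on the log2 scale (SE 0.13, 95% interval -1.0 to -0.42, edgeR adjusted p = 0.0027), to 61.0% of control, and with 1 library left out it ranged from -0.81 to -0.61 and passed each time. The related gene Phlda1, a pleckstrin homology domain gene, stood at 17.4 ± 4.54 CPM in control and 38.5 ± 14.0 CPM in p63KO and rose by 1.15 on the log2 scale (SE 0.28, edgeR adjusted p = 0.013). That call was lost without p63KO replicate 1 (edgeR adjusted p = 0.0601) or replicate 3 (0.0516), and with robust dispersions (0.0633), in a range of 0.000707 to 0.0633. Phlda2 had too few counts to test.

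Eda2r encodes a receptor of the tumour necrosis factor family that binds the A2 form of ectodysplasin, and it lies on the X chromosome. It was the least abundant of the 10 genes, with 71, 74 and 93 counts in control (3.81, 3.78 and 5.47 CPM) and 71, 158 and 107 counts in p63KO (4.19, 10.9 and 7.94 CPM). The value of p63KO replicate 1 lay within the control range and the other p63KO libraries were above it. The highest value was in p63KO replicate 2, the library with almost no Xist, and the part of this in the value was not tested. The log2 fold change was 0.82 (SE 0.33, 95% interval 0.06 to 1.57) and did not pass (edgeR adjusted p = 0.10). It was 1.12 without p63KO replicate 1 (edgeR adjusted p = 0.0169), and 0.49 at the lowest with another library left out. DESeq2 gave 0.82 with an adjusted p of 0.0499, and the adjusted p ranged from 0.0169 to 0.325 over the alternatives.

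The ectodysplasin receptor for the A1 form, Edar, went from 22.4, 24.3 and 16.9 CPM in control to 0.35, 0.21 and 1.11 CPM in p63KO, a log2 fold change of -5.28 (SE 0.40, edgeR adjusted p = 1.2e-05). Of the 7 tested genes of the ectodysplasin pathway list, which includes Eda2r, 1 rose, 2 fell and 4 did not pass (42.9% called, beside 29.6% of all genes). Those called beside Edar were Traf3, a signalling adaptor (-0.38, SE 0.08), and Tnfrsf19, a receptor of the same family (0.76, SE 0.16). The ligand gene Eda was at -0.02 (SE 0.13). Without p63KO replicate 1, 2 genes of the list rose, Eda2r being the second.

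Bax encodes the pore-forming protein that permeabilises mitochondria in apoptosis. It was 61.0, 64.3 and 60.9 CPM in control and 69.9, 82.7 and 74.8 CPM in p63KO, each p63KO library above each control library. Bax rose by 0.29 on the log2 scale (SE 0.08, 95% interval 0.12 to 0.46, edgeR adjusted p = 0.019), to 122.1% of control. Leaving out control replicate 1 (0.27, edgeR adjusted p = 0.0643) or control replicate 3 (0.27, 0.0511) ended the call, and the adjusted p ranged from 0.00871 to 0.0643 over the alternatives. In the GENCODE M21 annotation, 12.2% of its exon bases are shared with the model gene Gm45808 on the same strand, while the other 9 genes share no exon base with another gene.

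Bbc3 encodes PUMA and Pmaip1 encodes NOXA, both BH3-only proteins that act upstream of BAX. Bbc3 was 9.12, 9.96 and 8.35 CPM in control (142 to 195 counts) and 12.7, 11.4 and 12.47 CPM in p63KO (165 to 216 counts), again with no overlap. Its log2 fold change of 0.42 (SE 0.14, 95% interval 0.10 to 0.73) lay just outside the threshold (edgeR adjusted p = 0.052). It passed with upper-quartile scaling (0.0433), limma-voom (0.0438) and a filter of 1 CPM in 3 libraries (0.0465), while the highest adjusted p of an alternative was 0.13.

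Pmaip1 was 11.1, 17.5 and 17.6 CPM in control and 9.38, 8.24 and 10.8 CPM in p63KO. The groups did not overlap, but control replicate 1 was only just above the highest p63KO library. Pmaip1 fell by 0.70 on the log2 scale (SE 0.20, 95% interval -1.16 to -0.24, edgeR adjusted p = 0.029). Leaving out any of 4 libraries ended the call: control replicate 2 (-0.60, edgeR adjusted p = 0.0857), control replicate 3 (-0.60, 0.0696), p63KO replicate 1 (-0.69, 0.0849) and p63KO replicate 2 (-0.59, 0.109). Over all alternatives the adjusted p ranged from 0.00451 to 0.109. The 3 apoptosis genes therefore did not share a direction, since Bax and Bbc3 had positive and Pmaip1 a negative log2 fold change.

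**Figure D2:**
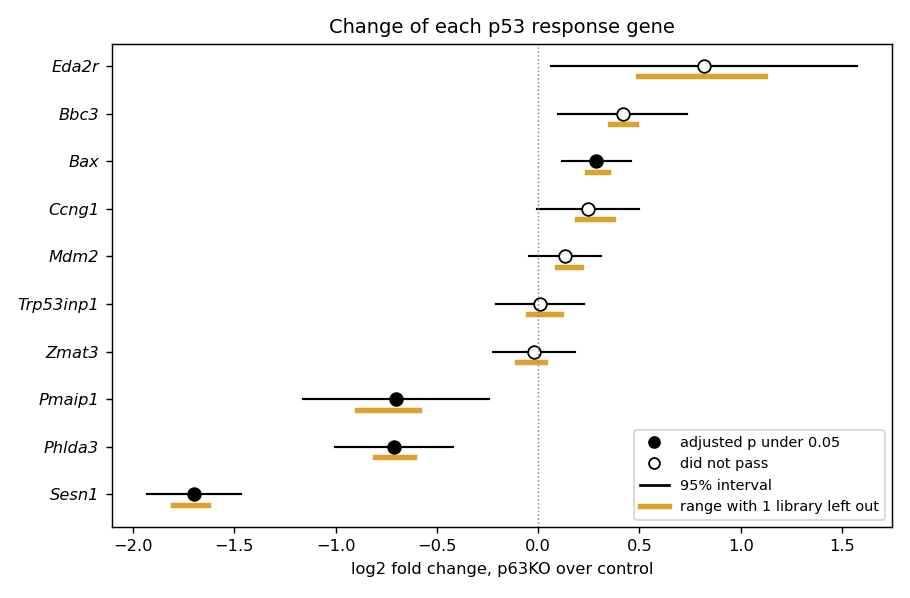
Log2 fold change (p63KO over control) of each gene with its 95% interval, filled where the adjusted p was under 0.05, and in orange the range with 1 library left out. Sesn1 at -1.70 stands lowest, and the intervals of Bbc3 and Eda2r exclude 0 before adjustment over all genes although neither passed after it.

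Across libraries, p63KO replicate 1 was the lowest p63KO library for 6 of the 10 genes and p63KO replicate 2 the highest for 7. In control, replicate 2 was the highest for 7 and replicate 3 the lowest for 7. Against the control mean, Mdm2, Ccng1 and Eda2r stood at -0.03, -0.03 and -0.06 on the log2 scale in p63KO replicate 1, at 0.25, 0.39 and 1.33 in replicate 2 and at 0.17, 0.35 and 0.87 in replicate 3. Bax and Bbc3 were above the control mean in every p63KO library, and Sesn1, Phlda3 and Pmaip1 below it in every one. Without p63KO replicate 1, 4 of the 10 genes rose (Bax, Mdm2, Ccng1 and Eda2r) and 2 fell. Of the 14060 genes tested in that fit, 1734 rose and 1647 fell. Without control replicate 1 or 3, 0 of the 10 rose, and without any other single library 1 rose.

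**Figure D3:**
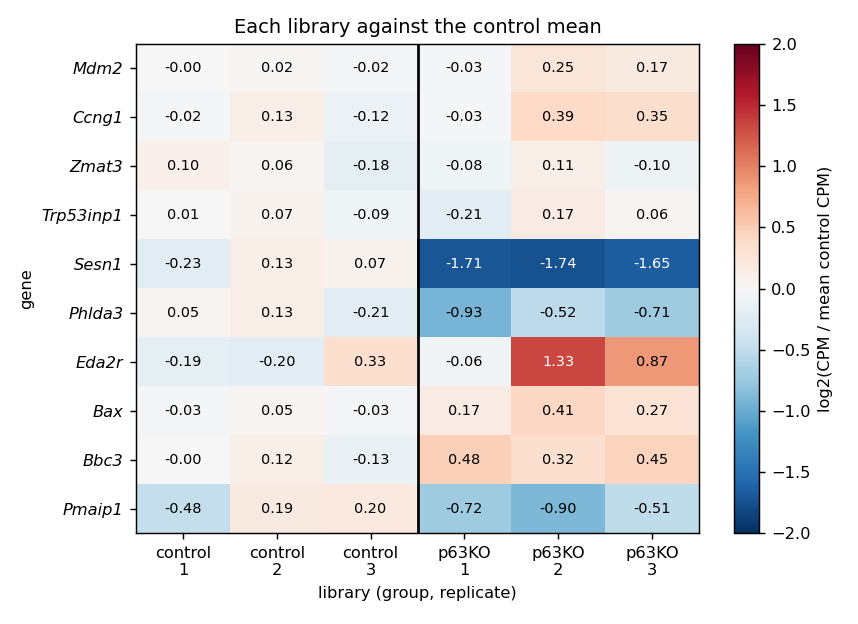
Log2 ratio of each library's CPM to the mean control CPM, for the 10 genes (rows) and the 6 libraries (columns), on a colour scale from -2 to 2. Sesn1 is near -1.7 in all 3 p63KO libraries, while Mdm2, Ccng1 and Eda2r are near 0 in p63KO replicate 1 and positive in replicates 2 and 3.

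Levels of different genes were compared per length, as CPM per kb of exon in GENCODE M21, whose gene models may differ from those used for counting. In control the order of levels was Bax (39.4 ± 1.22), Ccng1 (36.6 ± 3.12), Phlda3 (24.6 ± 2.92), Sesn1 (20.7 ± 2.70), Trp53inp1 (16.5 ± 0.92), Zmat3 (15.8 ± 1.6), Mdm2 (14.9 ± 0.24), Pmaip1 (5.64 ± 1.38), Bbc3 (4.30 ± 0.38) and Eda2r (0.74 ± 0.16 CPM per kb, SD, n = 3). The libraries of Bax and Ccng1 overlapped, as did those of Phlda3 and Sesn1, of Trp53inp1 and Zmat3, of Zmat3 and Mdm2, and of Pmaip1 and Bbc3. In p63KO, Phlda3 (15.04 ± 2.1 CPM per kb) stood in the range of Zmat3, Mdm2 and Trp53inp1. Sesn1 (6.39 ± 0.20 CPM per kb) stood just above Bbc3 (5.75 ± 0.33), with no overlap between them. Bbc3 was above Pmaip1 (3.47 ± 0.48 CPM per kb), the reverse of their order in control, where they overlapped.

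**Figure D4:**
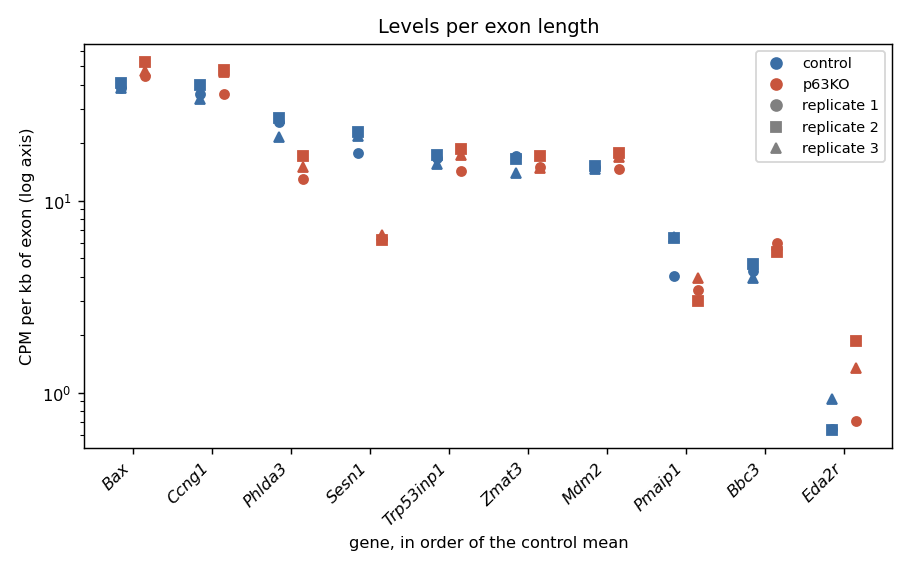
Level of each gene per kb of exon in each library on a log axis, with genes in order of the control mean, control in blue and p63KO in red. Bax and Ccng1 are highest in both groups and Eda2r lowest, and Sesn1 moves from 20.7 to 6.39 CPM per kb.

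The same fit gave the rest of the p53 network. Trp53 itself was 155.1, 155.7 and 149.3 CPM in control and 127.0, 119.2 and 122.9 CPM in p63KO, a log2 fold change of -0.32 (SE 0.06, edgeR adjusted p = 0.0026). Trp73, the other relative, was at or below 2.23 CPM in every library (log2 fold change -0.28, SE 0.46, edgeR adjusted p = 0.70). Of 26 tested genes in the list of p53 regulators, 6 fell and 20 did not pass, with a median log2 fold change of -0.07. This list includes Trp53 itself, which is 1 of the 6. The number that rose was 0 in edgeR, also at an unadjusted p under 0.05, and 0 in DESeq2 and limma-voom, while 1, Npm1, rose with the replicate number as a block. Here 23.1% were called, where 29.6% of all genes were. The largest falls were of Ppp1r13l, which encodes the inhibitor iASPP (from 87.0 ± 8.82 to 42.1 ± 3.85 CPM, log2 fold change -1.04), the checkpoint kinase gene Chek2 (-0.50) and Ppp1r13b, which encodes the cofactor ASPP1 (-0.36). For Chek2, leaving out control replicate 2 or 3 ended the call (edgeR adjusted p = 0.0675 and 0.0532), as did leaving out p63KO replicate 1 or 3 (0.0895 and 0.0903), in a range of 0.00652 to 0.0903. Without control replicate 2, 3 regulators fell. Npm1, the regulator with the highest mean CPM over the 6 libraries (not scaled for length), was at 0.18 (SE 0.10, edgeR adjusted p = 0.20). With the replicate block it was also at 0.18 and passed (edgeR adjusted p = 0.0422), and with 1 library left out it ranged from 0.12 to 0.27 (0.0556 to 0.478). Mdm4, the MDM2 relative that restrains p53, was at -0.18 (SE 0.12, edgeR adjusted p = 0.28), and ranged from -0.28 without control replicate 3 to -0.07 without p63KO replicate 1, passing in neither (0.0869 and 0.666).

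Among 44 other p53 targets with enough counts, 5 were higher and 15 lower past the test and 24 did not pass. Their median log2 fold change was -0.17. This was 45.5% called, beside 29.6% of all genes, a difference that was not tested. The list was chosen with earlier results of these data known. The largest changes were of Sfn, the 14-3-3 sigma gene of keratinocytes (-4.54, SE 0.10), Perp, a desmosomal membrane protein (-3.98, SE 0.12), and Thbs1, the secreted matrix protein thrombospondin 1 (3.22, SE 0.17). Sfn and Perp are also known as p63 targets of the squamous lineage. The phosphatase gene Ptpn14, with the highest mean CPM of the list over the 6 libraries (not scaled for length), fell by 0.61 on the log2 scale. Cdkn1a, which encodes the cell cycle inhibitor p21, was 57.1, 54.6 and 46.6 CPM in control and 61.8, 73.4 and 65.2 CPM in p63KO and rose by 0.34 (SE 0.10, edgeR adjusted p = 0.026). For Cdkn1a, leaving out control replicate 3 ended the call (edgeR adjusted p = 0.0695), as did leaving out p63KO replicate 2 (0.0627) or 3 (0.0602), in a range of 0.00816 to 0.0695. Without p63KO replicate 3, 9 of these targets fell, and without p63KO replicate 1, 10 fell. Another 5 listed targets were not tested, 4 with too few counts and 1 with no row.

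Around Bax, Bbc3 and Pmaip1, the other BCL2 family and apoptosome genes mostly did not pass. Of 20 tested, 2 rose, 2 fell and 16 did not pass (20% called, beside 29.6% of all genes), with a median log2 fold change of 0.01. The genes that rose were the BH3-only genes Hrk, from 4 to 14 counts per control library to 23 to 45 in p63KO (log2 fold change 2.005, SE 0.43), and Bik (2.35 ± 0.32 to 6.72 ± 1.54 CPM, 1.52, SE 0.24). Apaf1, the scaffold of the apoptosome, fell by 0.24 (SE 0.08, edgeR adjusted p = 0.049). The Apaf1 call was lost under 9 of 15 alternatives, among them each control replicate and p63KO replicates 1 and 3 left out in turn, with an adjusted p of 0.0192 to 0.139 over all 15. The other gene that fell, Xiap, an inhibitor of caspases, was at -0.23 (SE 0.06) and is named after its value was seen. Mcl1, a BCL2-type survival gene with the highest mean CPM of the list, was at 0.17 (SE 0.07, edgeR adjusted p = 0.11). Leaving out control replicate 1 or p63KO replicate 1 or 3 ended the Xiap call as well (edgeR adjusted p = 0.0642, 0.0591 and 0.0684, in a range of 0.00985 to 0.0684).

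Among 14 tested paralogs of the 10 genes, 3 rose, 1 fell and 10 did not pass (28.6% called, beside 29.6% of all genes). Trp53inp2, the autophagy-related relative of Trp53inp1, was 55.0, 48.6 and 48.0 CPM in control and 190.2, 153.2 and 162.7 CPM in p63KO and rose by 1.74 on the log2 scale (SE 0.10), with no overlap. The other paralogs called were Edar and Phlda1, given above, and Zmat4 (1.11, SE 0.35), the latter named after its value was seen. Leaving out any p63KO library ended the Zmat4 call (edgeR adjusted p = 0.0733 to 0.106, in a range of 0.00543 to 0.106). Ccni, the paralog with the highest mean CPM, was at -0.01 (SE 0.06). Without p63KO replicate 1 or 3, 1 paralog rose and without p63KO replicate 2, 2 rose, and 2 fell when control replicate 1, or p63KO replicate 1 or 2, was left out.

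**Figure D5:**
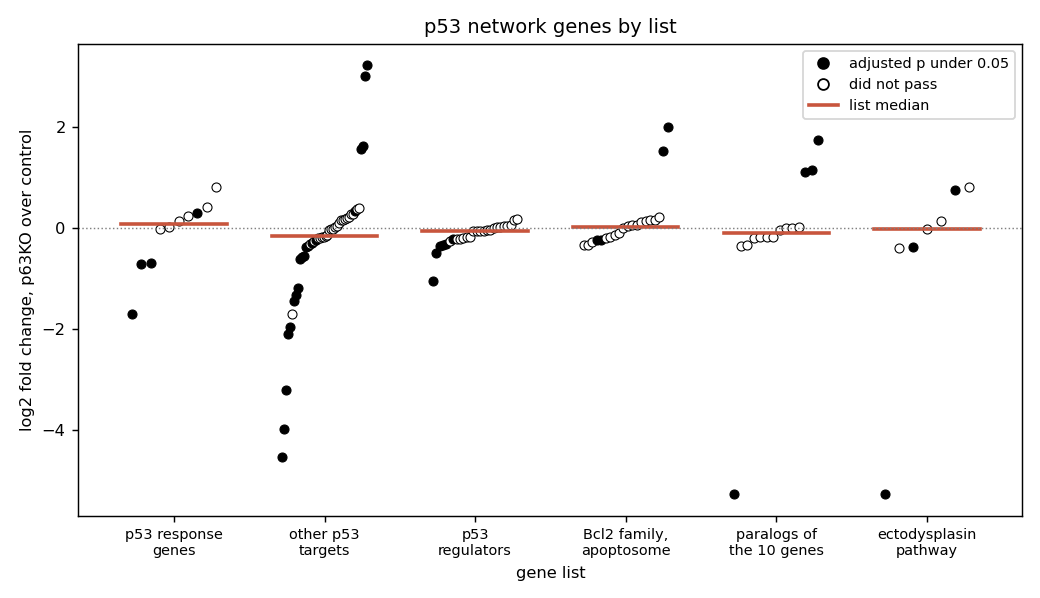
Log2 fold change (p63KO over control) of each tested gene in the 10 p53 response genes and 5 related lists, filled where the adjusted p was under 0.05, with the list median in red. All 6 medians lie between -0.17 and 0.07, while single genes range from -5.28 (Edar) to 3.22 (Thbs1).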

How the data were processed

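RNA-seq of 3 control and 3 p63KO samples was analysed. The authors deposited 1 table of raw, unnormalized counts by gene symbol. TopHat2 2.1.0, bcl2fastq 1.8.4, DESeq2 and build mm9 were used, per the submitters' processing notes. No counter, annotation or strand setting is named (not given in the sources used here). Columns were tied to samples by the sample descriptions. The members and gene lists were chosen with earlier results of these data known, and the allowance of mismatches in the promoter search after the sequences had been seen.

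In R 4.3.3, edgeR 4.0.16 kept 13849 genes (filterByExpr, minimum count 10, minimum total 15), scaled libraries by TMM and ran a quasi-likelihood test of p63KO against control with no covariate. Benjamini-Hochberg adjustment ran over all genes tested. The SE is the log2 fold change divided by the square root of F, and intervals are 95%. Libraries of a group differed beyond sampling noise (chi-square per degree of freedom 7.87 to 16.1). The fit was tested on simulated data with far fewer changed genes than the 4098 called here. It recovered 50.8% of 65 genes changed 1.5-fold, 73.1% of 67 changed 2-fold and 93.8% of 65 changed 4-fold, with 12 false calls. A gene that did not pass may therefore still have changed. Of the listed symbols, 4 were found by an older name.

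Named genes were the 10 members, Trp63, Trp53, Trp73, Cdkn1a, Mdm4, Perp, the 3 largest called changes and the gene with the highest mean CPM of each of 4 lists, and the called genes of the ectodysplasin list; Sesn2, Sesn3, Phlda2 and Eda are named beside their relatives. Alternatives were DESeq2 1.42.0, 2 scalings, limma-voom (3.58.1), 2 filters, robust dispersions, a replicate block, removal of sex-linked and haemoglobin genes, each library left out, and a threshold of 0.01. Coordinates are used only for RefSeq promoters (GRCm38.p6), not for the counts.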

Additional observations from a re-analysis of the deposited data

How the results depend on the processing

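With 15 alternative fits, Sesn1 and Phlda3 passed in the same direction in each. With 1 library left out in turn, the log2 fold changes ranged from 0.094 to 0.21 (Mdm2), 0.19 to 0.37 (Ccng1), 0.24 to 0.34 (Bax), -0.89 to -0.59 (Pmaip1), 0.49 to 1.12 (Eda2r), -0.10 to 0.031 (Zmat3), -0.051 to 0.11 (Trp53inp1), -0.70 to 0.089 (Trp73) and -0.035 to 0.028 (Ccni). Counts of members that rose then ranged from 0 to 4, paralogs that rose from 1 to 3 and that fell from 1 to 2, and ectodysplasin genes that rose from 1 to 2. Over all genes tested, 3150 to 3771 changed with 1 library left out, in place of 4098. Genes that fell ranged from 0 to 2 in the BCL2 family and apoptosome list. They ranged from 3 to 8 among p53 regulators, counted with Trp53, and from 9 to 13 among other p53 targets. Bbc3 passed with upper-quartile scaling (0.44), limma-voom (0.42) and a filter of 1 CPM in 3 libraries (0.42), and Eda2r with DESeq2 (0.82), so that 2 members rose under each of these 4. With DESeq2, 2 ectodysplasin genes rose. With DESeq2, RLE scaling, upper-quartile scaling or no filter, 1 gene of the BCL2 family and apoptosome list fell. Zmat3 turned to 0.0029 with upper-quartile scaling, and Ccni to 0.0013 with DESeq2, 0.0015 with RLE scaling and 0.019 with upper-quartile scaling. At an adjusted p under 0.01, 2580 genes changed, 1353 higher and 1227 lower. Apart from the stricter threshold, why these results differed from the main fit was not tested.

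Same-numbered libraries had correlated deviations from their group means of 0.22, 0.28 and 0.06 for replicates 1, 2 and 3, so not every pair passed 0.1, and each library correlated best with its own number. With the replicate block, 4778 genes changed in place of 4098, the calls of the 10 members stayed at 1 higher and 3 lower, 1 p53 regulator (Npm1) rose and 3 paralogs fell. Counts per library were 71 to 158 for Eda2r, 142 to 216 for Bbc3 and 119 to 343 for Pmaip1, against at least 316 for each other member.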
